A study of Rattus norvegicus with 12 samples.

Results

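The genes described here encode the enzymes that make cholesterol, fatty acids and glycerolipids, together with the proteins that sense and carry sterols. They were chosen by name: a list of 38 names stood for 35 genes, and a gene counted as measured where at least 1 probe set carried its symbol alone, with the brightest probe set taken over all 12 arrays. In this way 33 genes were measured, among 14506 in all. Hmgcs1 was not analysed here, and Srebf1 had only a probe set that names several genes, so it was given no value. The arrays were Affymetrix whole-transcript arrays of total RNA from primary cultures of neonatal Sprague Dawley rat cardiac myocytes. Before collection all cultures shared a medium with bromodeoxyuridine at 0.1 mmol/L against fibroblast growth, a transfection with siRNA, and 48 h without serum in a medium with transferrin, vitamin B12 and insulin. The labels give over 90% myocytes in the final cultures, which leaves room for other heart cells. Control cultures (NS) received a non-silencing siRNA and the others (p300kd) one that targets Ep300, whose product p300 acetylates histones and other proteins. Cells with either siRNA were collected after 0 h or 8 h in 1 µM doxorubicin, an anthracycline that inhibits topoisomerase II. This gave 4 groups of 3 arrays, NS at 0 h, NS at 8 h, p300kd at 0 h and p300kd at 8 h. The labels number the arrays of a group as biological replicates 1 to 3 and name no experiment. Arrays with the same number were taken here as 1 experiment. Drug and time cannot be told apart, because the 8 h cultures were all treated.

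Cells make cholesterol from acetyl-CoA by way of mevalonate, isoprenoids, squalene and lanosterol. The enzymes are switched on together by the SREBP transcription factors. These are made as membrane proteins and are bound by the escort protein SCAP. When sterols are plentiful, INSIG proteins hold SCAP in the endoplasmic reticulum; when sterols run low, SREBP travels to the Golgi, is cut there and enters the nucleus. The product of Srebf2 acts mainly on sterol genes and that of Srebf1 also on fatty acid genes. SREBPs bind sterol regulatory elements and usually act beside the factors NF-Y and Sp1, and p300 and its relative CBP are known coactivators. Heart muscle burns much more fatty acid than it makes, but it needs sterols and phospholipids for its extensive membranes.

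The sequences just upstream of the genes are shown first, since the genes are known for shared control at their promoters. RefSeq windows (build GRCr8), from 250 bases before to 50 bases after each start site, were at hand for 26 of the 33 genes. Both strands were searched for 5 motifs. TCACCCCAC, the core letters of the classical sterol regulatory element, was in 0 of the 26 windows and in 0.484% of all 33469 windows. The looser TCACNCCAC, which includes it, was also in 0 of 26, against 1.12% of all windows. The E-box CACGTG, which SREBPs can also bind, was in 3 of 26 windows, those of Insig1, Scap and Sc5d (11.5%, against 6.42%). CCAAT, the letters that NF-Y reads, was in 20 of 26 (76.9%, against 37.5%). GGGCGG, the letters that Sp1 reads, was in 18 of 26 (69.2%, against 33.1%). These are matches of letters in a window, not binding sites. The windows were not limited to genes measured here, and no share was taken for other genes of like level. Whether the higher shares are particular to the 26 genes was therefore not tested. The 200 bases upstream of the gene's annotated span are printed for 6 genes, chosen after their values were seen: Msmo1 and Dhcr7, which fell the most with doxorubicin, Insig1, a sterol sensor that fell, Cyp51, whose change was near 0 and not called, and Idi1 and Tm7sf2, which rose. All read 5′ to 3′ on the gene's strand, with matches to the last 3 motifs, on either strand, in capitals.
Msmo1, chr16:29746913-29747112, plus strand: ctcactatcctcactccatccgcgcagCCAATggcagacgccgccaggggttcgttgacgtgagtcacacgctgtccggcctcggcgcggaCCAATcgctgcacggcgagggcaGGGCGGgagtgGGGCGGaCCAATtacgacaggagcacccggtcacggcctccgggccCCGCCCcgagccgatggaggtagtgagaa
Dhcr7, chr1:208444234-208444433, plus strand: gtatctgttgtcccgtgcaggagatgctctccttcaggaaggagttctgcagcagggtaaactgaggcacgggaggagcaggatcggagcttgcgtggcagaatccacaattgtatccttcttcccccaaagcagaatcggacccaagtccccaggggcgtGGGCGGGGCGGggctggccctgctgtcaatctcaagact
Insig1, chr4:8057813-8058012, minus strand: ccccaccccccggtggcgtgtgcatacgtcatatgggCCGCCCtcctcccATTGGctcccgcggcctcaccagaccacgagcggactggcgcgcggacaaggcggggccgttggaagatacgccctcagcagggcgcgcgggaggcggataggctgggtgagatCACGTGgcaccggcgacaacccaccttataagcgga
Cyp51, chr4:30991493-30991692, plus strand: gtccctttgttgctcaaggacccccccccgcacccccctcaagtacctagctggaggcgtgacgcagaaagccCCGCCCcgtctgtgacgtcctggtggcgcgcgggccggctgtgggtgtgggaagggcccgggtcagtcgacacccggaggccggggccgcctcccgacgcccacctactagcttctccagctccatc
Idi1, chr17:66547525-66547724, minus strand: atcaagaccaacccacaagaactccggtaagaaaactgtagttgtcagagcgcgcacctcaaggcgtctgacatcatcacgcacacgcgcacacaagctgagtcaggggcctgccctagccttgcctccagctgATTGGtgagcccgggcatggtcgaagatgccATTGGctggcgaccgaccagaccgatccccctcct
Tm7sf2, chr1:212789573-212789772, minus strand: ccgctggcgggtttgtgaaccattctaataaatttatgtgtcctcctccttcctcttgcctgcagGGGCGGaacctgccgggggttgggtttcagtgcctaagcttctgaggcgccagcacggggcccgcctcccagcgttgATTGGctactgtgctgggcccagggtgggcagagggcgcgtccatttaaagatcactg
Msmo1 has 3 CCAAT and 3 GGGCGG matches in its stretch, whereas Dhcr7 has no CCAAT and 2 overlapping GGGCGG matches close to its downstream end. Insig1 has 1 match to each of the 3 motifs. Cyp51 has 1 GGGCGG match only. Of the genes that rose, Idi1 has 2 CCAAT matches and Tm7sf2 has 1 CCAAT and 1 GGGCGG match. In these 6 stretches, none of the 3 motifs was thus common to the genes that fell and absent from those that rose. Among the other genes that fell in NS cells, Lss and Mvd had CCAAT and GGGCGG in their windows and Lpin1 had CCAAT only. Fdft1, Sqle and Stard4, which also fell, had no window.

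Most of the genes were well above the middle of the array. Of the 33, 31 had a mean level above the median of all genes (8.57 on the log2 scale), and their own median was 10.23. These levels are probe set intensities and do not rank genes against one another. Ep300, the gene the siRNA targets, read 11.16, 11.01 and 11.14 in NS cells at 0 h and 10.41, 10.02 and 10.05 in p300kd cells at 0 h. At 8 h it read 10.86, 10.72 and 10.72 in NS cells and 10.10, 9.64 and 9.80 in p300kd cells. The siRNA groups did not overlap at either time, and the mean difference over both times was -0.93 (SE 0.0894, adjusted p = 0.00212). Without experiment 2 or experiment 3 this difference was -0.88 or -0.90 and was not called (adjusted p = 0.348 and 0.168). All 12 cardiac myocyte markers read between percentiles 91.6 and 99.98 of the intensities of all genes, and the markers of 6 other cell types between 14.6 and 99.99. As intensities of different probe sets, these percentiles give no order of cell types. In bulk RNA of such cultures, fewer cells of a type and less RNA per cell cannot be told apart.

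With doxorubicin in NS cells, 9 of the 33 genes fell and 2 rose (limma, adjusted p under 0.05, Benjamini-Hochberg over all genes). Of all genes tested, 16.4% were called lower and 11.1% higher. The falls were Msmo1, Dhcr7, Fdft1, Sqle, Lpin1, Insig1, Stard4, Mvd and Lss, and the rises were Idi1 and Tm7sf2. The median change of the 33 genes was -0.12 on the log2 scale, against 0.04 for all genes. In p300kd cells 10 fell and 2 rose, against 17.5% and 13.9% of all genes, with a median of -0.19 against 0.04. There Fdps and Mvk were added to the falls and Lpin1 was not called. Averaged over both siRNAs, 13 fell and 5 rose, against 22.5% of all genes in each direction. The averaged falls added Fdps, Mvk, Srebf2 and Fads1 to those of NS cells, and the averaged rises added Acly, Ebp and Scap. In a fit with the experiment as a block (the blocked fit), counts were 13 lower and 6 higher in NS cells (21.9% and 21.6% of all genes), 16 lower and 5 higher in p300kd cells (22.8% and 22.9%), and 18 lower and 7 higher averaged (26.3% and 29.7%). The block added Acacb, Elovl6, Insig2, Sc5d and Scd2 to the averaged falls and Pmvk and Nsdhl to the averaged rises (adjusted p 4.56e-05 to 0.0218). Leaving out experiment 2 left 4 falls in NS cells, where the calls lower over all 14506 genes dropped from 2375 to 1327. Leaving out experiment 3 left 6 in p300kd cells, where those over all genes dropped from 2543 to 1573. Scaling mattered for the split, as seen when each array was centred on the median of its 14506 genes (median centring). The median change of all genes in NS cells then moved to 0.14 and the share of calls that were higher from 40.5% to 67.5%. The 33 genes then gave 8 falls and 5 rises. In p300kd cells that share moved from 44.2% to 68.6% and the 33 genes gave 8 falls and 6 rises, and averaged over both siRNAs it reached 72.6% with 9 falls and 8 rises. Of all 14506 genes, centring called 1832 lower and 3800 higher in NS cells, 1991 and 4344 in p300kd cells, and 2526 and 6684 averaged.

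**Figure D1:**
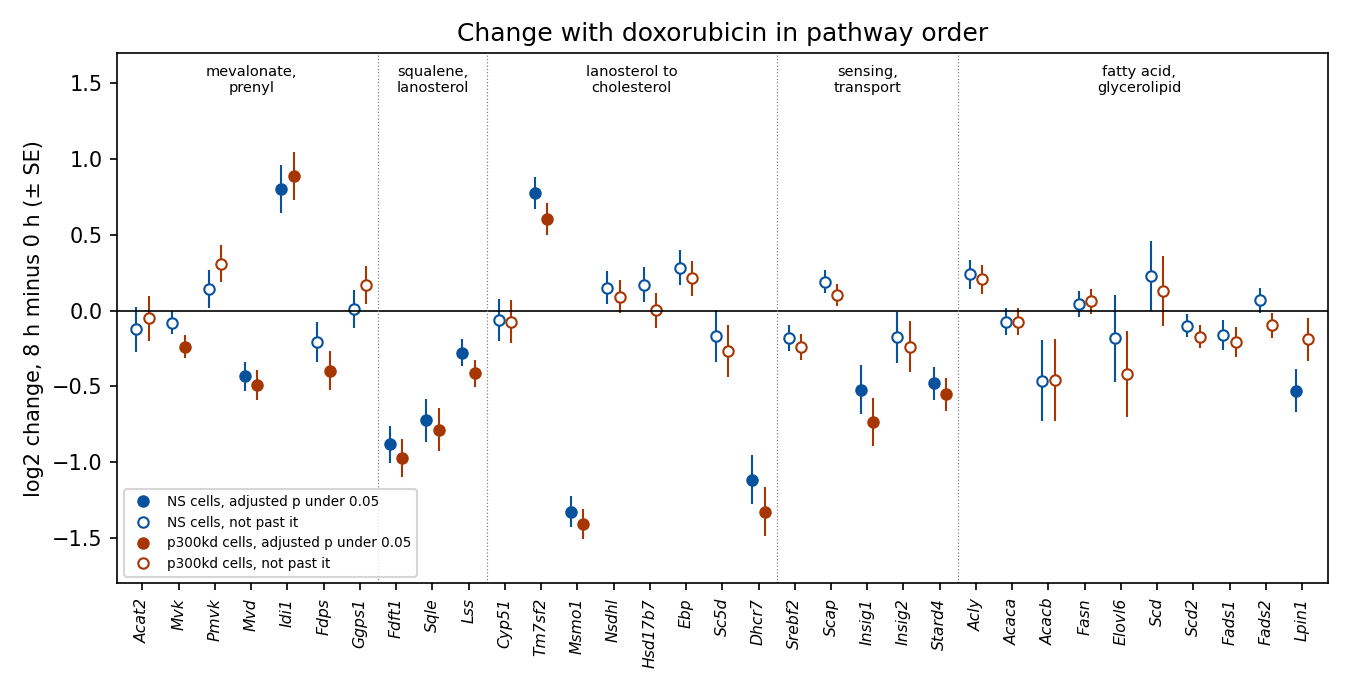
Log2 change from 0 h to 8 h of doxorubicin (y axis, mean ± SE of the fit, 3 arrays a group) for the 33 genes in pathway order (x axis), in NS cells (blue) and p300kd cells (orange), filled where the adjusted p was under 0.05. Msmo1 (-1.33 and -1.41) and Dhcr7 (-1.12 and -1.33) lie lowest in both, and Idi1 (0.80 and 0.89) and Tm7sf2 (0.78 and 0.61) highest. The median absolute change of the fatty acid and glycerolipid genes was 0.17 in NS cells, against 0.16 for all genes. In p300kd cells it was 0.18, against 0.17.

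Of 7 genes of the mevalonate and prenyl steps, 1 rose and 1 fell in NS cells, close to the shares of all genes called (11.1% and 16.4%). Idi1, the isomerase that turns isopentenyl into dimethylallyl diphosphate, read 9.54, 9.93 and 9.33 in NS cells at 0 h and 10.28, 10.66 and 10.27 at 8 h, in experiments 1, 2 and 3. In p300kd cells it read 9.72, 9.78 and 9.47 at 0 h and 10.62, 10.65 and 10.37 at 8 h. Every 8 h array was above every 0 h array. Idi1 rose 1.74-fold in NS cells (0.80, SE 0.156, adjusted p = 0.00211) and 1.85-fold in p300kd cells (0.89, SE 0.156, adjusted p = 0.000887). Mvd, the decarboxylase 1 step before Idi1, moved the other way. It read 9.15, 9.31 and 8.92 in NS cells at 0 h and 8.77, 8.59 and 8.72 at 8 h, so the groups were apart. The change of Mvd was -0.43 in NS cells (SE 0.0968, adjusted p = 0.00512), largest in experiment 2 (-0.72) and smallest in experiment 3 (-0.20), and without experiment 2 it was -0.29 and not called (adjusted p = 0.132). In p300kd cells Mvd read 9.25, 9.26 and 9.26 at 0 h and 8.76, 8.82 and 8.71 at 8 h, also apart. There it fell by 0.49 (adjusted p = 0.00198), by a similar amount in each experiment (-0.49, -0.44 and -0.55).

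The other early enzymes changed less. Fdps, which makes farnesyl diphosphate, was called lower in p300kd cells (-0.40, SE 0.130, adjusted p = 0.0341) and not in NS cells (-0.21, adjusted p = 0.266, and 0.0103 in the blocked fit). Mvk, mevalonate kinase, was called lower in p300kd cells (-0.24, adjusted p = 0.0289) and not in NS cells (-0.08, adjusted p = 0.465). Both p300kd calls held in the blocked fit (adjusted p = 5.94e-05 for Fdps and 0.0098 for Mvk). They were fragile in fits that ignore the experiment. That of Fdps was lost in 7 of 23 alternatives (adjusted p 0.0657 to 0.146 there), among them without any 1 of the 3 experiments. That of Mvk was lost in 10 of 23 (0.0622 to 0.266), among them the same. The averaged fall of Mvk (-0.16, adjusted p = 0.0268) was also lost in 10 of 23, and median centring and quantile normalization left -0.06 and -0.05 (adjusted p = 0.379 and 0.492). That of Fdps (-0.30, adjusted p = 0.0173) was lost with median centring (-0.20, adjusted p = 0.0685), without experiment 1 (adjusted p = 0.0673) and without experiment 2 (adjusted p = 0.0544). The difference of the drug response between siRNAs was not called for Fdps (-0.19, 95% interval -0.59 to 0.21) or Mvk (-0.16, -0.39 to 0.07). Acat2, the thiolase that starts the pathway, Pmvk and Ggps1, which makes the geranylgeranyl group for protein prenylation, were not called in either, with changes between -0.12 and 0.31. Pmvk in p300kd cells (0.31, adjusted p = 0.0751) passed in the blocked fit (adjusted p = 0.0111).

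All 3 genes of the squalene and lanosterol steps fell in both kinds of cells. Of all genes, 16.4% were called lower in NS cells and 17.5% in p300kd cells. Fdft1, squalene synthase, commits farnesyl diphosphate to sterols. It read 12.09, 12.56 and 12.29 in NS cells at 0 h and 11.21, 11.61 and 11.47 at 8 h, and 12.11, 12.20 and 12.23 in p300kd cells at 0 h and 11.17, 11.36 and 11.09 at 8 h. No 8 h array reached the lowest 0 h array. The change was -0.88 in NS cells (a 1.84-fold lower level, SE 0.125, adjusted p = 0.000222) and -0.97 in p300kd cells (1.97-fold, adjusted p = 9.16e-05). Sqle, the squalene epoxidase, is a control point of the pathway. It read 10.46, 10.86 and 10.37 in NS cells at 0 h and 9.84, 10.06 and 9.61 at 8 h, and 10.47, 10.68 and 10.50 in p300kd cells at 0 h and 9.84, 9.85 and 9.61 at 8 h. The highest arrays were those of experiment 2 in all 4 groups, and the 8 h arrays stayed below all 0 h arrays. Sqle fell 1.65-fold in NS cells (-0.72, SE 0.142, adjusted p = 0.00221) and 1.73-fold in p300kd cells (-0.79, adjusted p = 0.00107). Lss, which closes the ring to lanosterol, fell less, by 0.28 in NS cells (adjusted p = 0.0368) and 0.42 in p300kd cells (adjusted p = 0.00370). The Lss call in NS cells was lost in 12 of 23 alternatives (adjusted p 0.0505 to 0.174), and that in p300kd cells without experiment 3 only (-0.38, adjusted p = 0.0685). Both held in the blocked fit (adjusted p = 0.0046 and 0.00018).

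Among the 8 genes from lanosterol to cholesterol, the largest falls and a rise stood side by side. Msmo1 is an oxidase that takes part in removing methyl groups from the sterol ring. It read 11.58, 11.96 and 11.62 in NS cells at 0 h and 10.30, 10.49 and 10.38 at 8 h. In p300kd cells it read 11.72, 11.85 and 11.76 at 0 h and 10.42, 10.39 and 10.29 at 8 h. The times were more than 1 log2 unit apart in both. Msmo1 fell 2.51-fold in NS cells (-1.33, SE 0.100, adjusted p = 2.38e-06) and 2.66-fold in p300kd cells (-1.41, SE 0.100, adjusted p = 1.36e-06), the largest fall of the 33 genes in each. Dhcr7, the reductase of the last step, read 10.33, 10.86 and 10.53 in NS cells at 0 h and 9.35, 9.63 and 9.40 at 8 h, and 10.61, 10.74 and 10.67 in p300kd cells at 0 h and 9.41, 9.63 and 8.99 at 8 h. The 8 h arrays were all below the 0 h arrays, and the lowest was p300kd in experiment 3. Dhcr7 fell 2.17-fold in NS cells (-1.12, SE 0.161, adjusted p = 0.000260) and 2.51-fold in p300kd cells (-1.33, adjusted p = 6.06e-05).

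Tm7sf2, a sterol reductase that acts directly after Cyp51, rose. In NS cells it read 9.60, 10.00 and 9.80 at 0 h and 10.45, 10.58 and 10.71 at 8 h, and in p300kd cells 10.03, 9.93 and 9.96 at 0 h and 10.57, 10.67 and 10.50 at 8 h. The 8 h arrays were all above the 0 h arrays. The rise was 1.72-fold in NS cells (0.78, SE 0.105, adjusted p = 0.000165) and 1.52-fold in p300kd cells (0.61, adjusted p = 0.000838). Cyp51, the lanosterol demethylase, whose expression is known to follow sterol supply, changed by -0.06 in NS cells (95% interval -0.37 to 0.24) and -0.07 in p300kd cells (-0.38 to 0.23) and was not called. The sign of these small Cyp51 changes turned with the arrays centred on their medians. Ebp, the sterol isomerase, was not called in NS cells (0.28, adjusted p = 0.0850, and 0.00456 in the blocked fit) or in p300kd cells (0.21, adjusted p = 0.184, 0.0241 with the block); its averaged rise (0.25, adjusted p = 0.0244) was lost in 6 of 23 alternatives (adjusted p 0.0556 to 0.200), each of which left out arrays. Sc5d, a sterol desaturase, gave -0.17 in NS cells (adjusted p = 0.513, 0.0385 with the block) and -0.27 in p300kd cells (adjusted p = 0.258, 0.00200 with the block). Nsdhl, which works with Msmo1 in demethylation, gave 0.15 and 0.09 and Hsd17b7, of the same complex of steps, 0.17 and 0.00; neither was called, and Nsdhl in NS cells only just passed with the block (adjusted p = 0.0494).

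**Figure D2:**
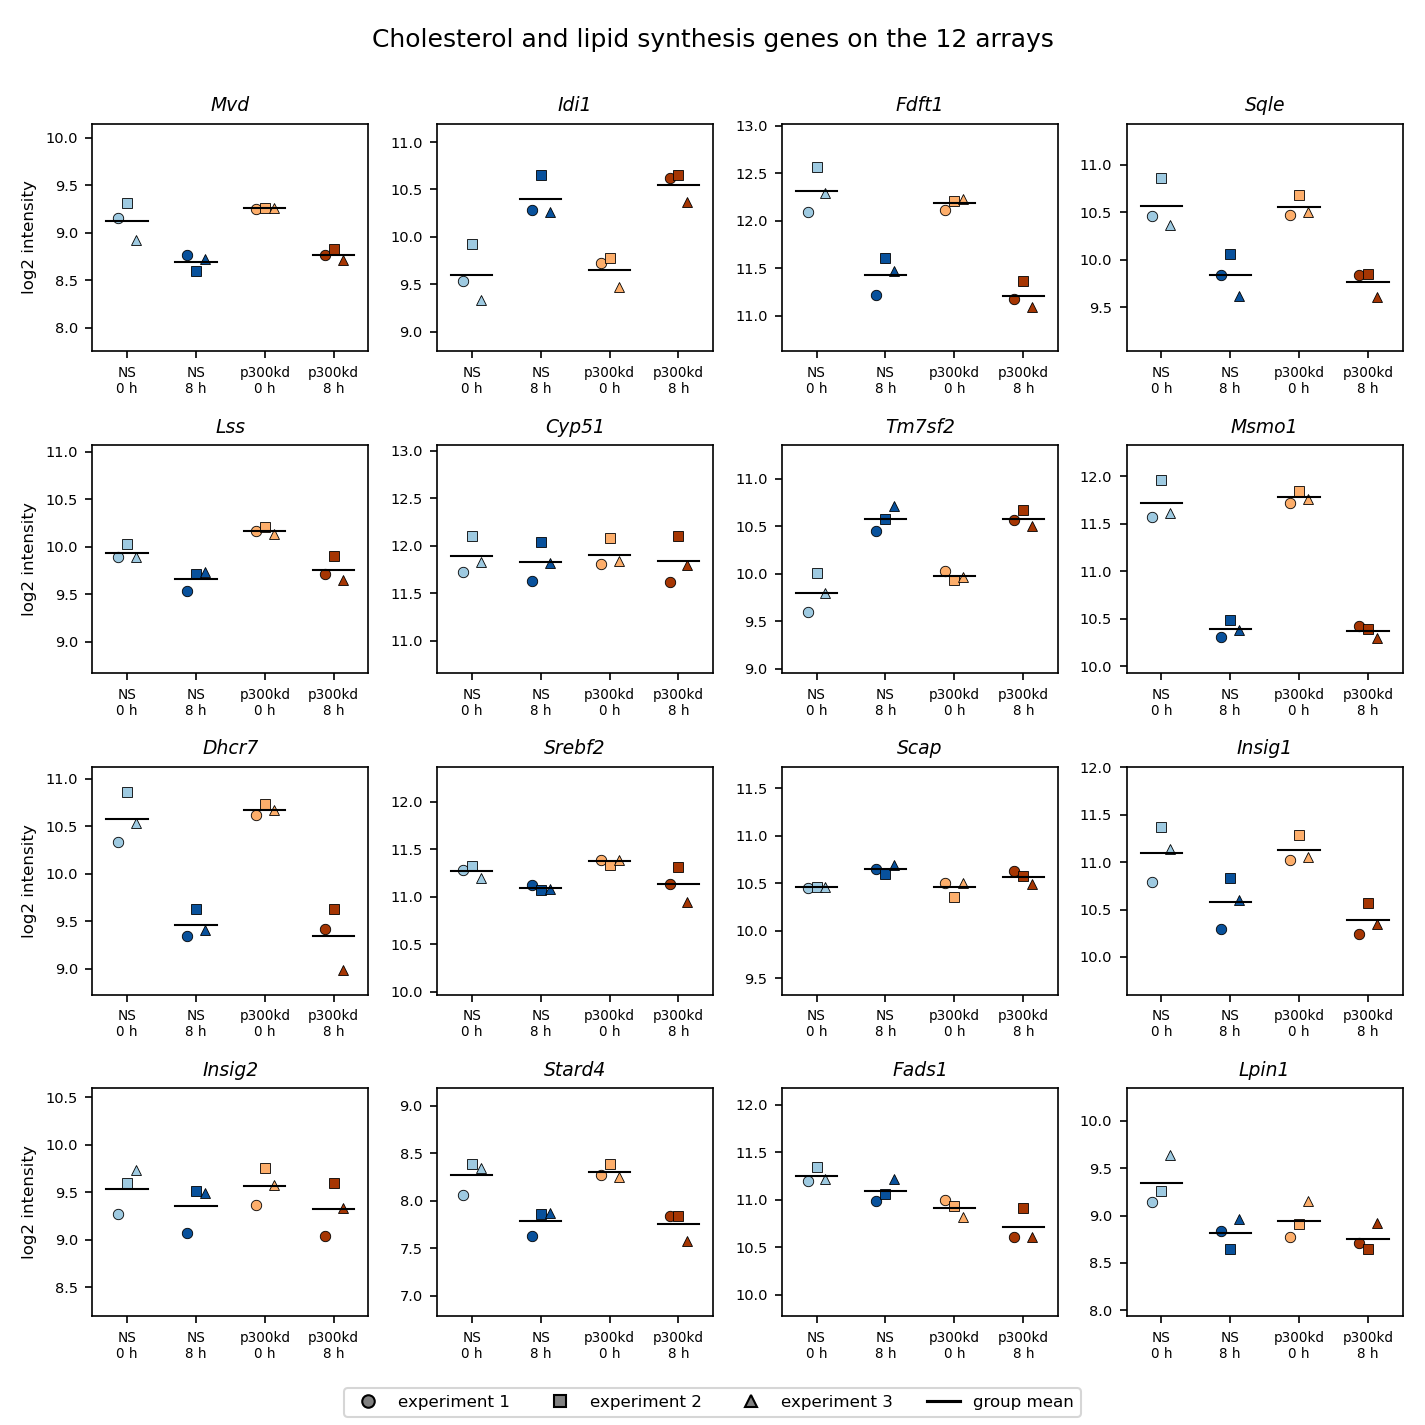
Log2 intensity (y axis, the same span of 2.4 units in each panel) of 16 of the genes in the 4 groups (x axis); each point is 1 array, its shape gives the experiment, and the bar is the mean of 3 arrays. The 8 h arrays of Msmo1, Dhcr7, Fdft1 and Sqle lie below all 0 h arrays, those of Idi1 and Tm7sf2 above, and the p300kd arrays of Fads1 lie below the NS arrays of the same time.

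Of the 5 genes of sterol sensing and transport, Insig1 and Stard4 fell in both kinds of cells. The shares of all genes called lower were 16.4% in NS cells and 17.5% in p300kd cells. Insig1, which retains SCAP and is itself an SREBP target, read 10.79, 11.37 and 11.14 in NS cells at 0 h and 10.30, 10.83 and 10.60 at 8 h. These groups overlapped, with experiment 1 low and experiment 2 high at both times, and the fall within each experiment was alike (-0.49, -0.54 and -0.53). In p300kd cells Insig1 read 11.02, 11.29 and 11.06 at 0 h and 10.24, 10.57 and 10.35 at 8 h, without overlap. The change was -0.52 in NS cells (SE 0.160, adjusted p = 0.0281) and -0.74 in p300kd cells (adjusted p = 0.00363). Both calls held in the blocked fit (adjusted p = 2.38e-05 in NS cells and 7.01e-07 in p300kd cells). In fits that ignore the experiment, the NS call was lost in 6 of 23 alternatives, each of which left out arrays (adjusted p 0.0618 to 0.190). The p300kd call was lost without experiment 3 (adjusted p = 0.0601). A second Insig1 probe set gave -0.61 and -0.87. Stard4, which carries sterols through the cytosol, read 8.07, 8.39 and 8.34 in NS cells at 0 h and 7.62, 7.86 and 7.87 at 8 h, and 8.27, 8.39 and 8.25 in p300kd cells at 0 h and 7.84, 7.84 and 7.58 at 8 h. The 8 h arrays were all below the 0 h arrays. Stard4 fell by 0.48 in NS cells (SE 0.109, adjusted p = 0.00557, and 0.0809 without experiment 2) and by 0.55 in p300kd cells (adjusted p = 0.00200).

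The other genes of sterol sensing and transport, Srebf2, Scap and Insig2, changed less. Srebf2 read 11.29, 11.32 and 11.20 in NS cells at 0 h and 11.12, 11.07 and 11.08 at 8 h, and 11.39, 11.34 and 11.39 in p300kd cells at 0 h and 11.13, 11.32 and 10.95 at 8 h. The 8 h arrays were lower without overlap within each siRNA. The changes of Srebf2, -0.18 in NS cells (adjusted p = 0.147) and -0.24 in p300kd cells (adjusted p = 0.0506), were not called but passed in the blocked fit (adjusted p = 0.0469 and 0.00933). Averaged over both siRNAs Srebf2 was called lower (-0.21, SE 0.0609, adjusted p = 0.0137), a call lost with median centring of each array (-0.11, adjusted p = 0.146), without experiment 1 (-0.21, adjusted p = 0.0654) and without experiment 3 (-0.17, adjusted p = 0.0957). Scap read 10.45, 10.46 and 10.46 in NS cells at 0 h and 10.65, 10.60 and 10.70 at 8 h, and 10.51, 10.36 and 10.51 in p300kd cells at 0 h and 10.63, 10.58 and 10.49 at 8 h. It was higher at 8 h without overlap in NS cells (0.19, adjusted p = 0.0706, and 0.0204 with the block), and the groups overlapped in p300kd cells (0.11, adjusted p = 0.306). Averaged, Scap was called higher (0.15, adjusted p = 0.0332), a call lost in 11 of 23 alternatives (adjusted p 0.0540 to 0.187). Insig2, the sterol sensor not driven by SREBP, read 9.28, 9.60 and 9.73 in NS cells at 0 h and 9.08, 9.51 and 9.49 at 8 h, and 9.36, 9.75 and 9.58 in p300kd cells at 0 h and 9.04, 9.60 and 9.34 at 8 h. Its groups overlapped and neither change was called (-0.18 and -0.24, adjusted p = 0.481 and 0.314), although that in p300kd cells passed with the block (adjusted p = 0.0209).

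Of the 10 fatty acid and glycerolipid genes, 1 was called in NS cells and 0 in p300kd cells. Of all genes, 16.4% were called lower and 11.1% higher in NS cells, and 17.5% and 13.9% in p300kd cells. The gene called was Lpin1, the phosphatidate phosphatase that makes diacylglycerol. It read 9.14, 9.26 and 9.64 in NS cells at 0 h and 8.84, 8.65 and 8.97 at 8 h, and 8.77, 8.91 and 9.16 in p300kd cells at 0 h and 8.71, 8.64 and 8.92 at 8 h. The NS groups were apart and the p300kd groups overlapped. Lpin1 changed by -0.53 in NS cells (SE 0.143, adjusted p = 0.0148) and by -0.19 in p300kd cells (adjusted p = 0.341). The difference between these responses was 0.34 (95% interval -0.10 to 0.78), positive in each experiment (0.25, 0.34 and 0.43), and was not called (adjusted p = 1.00). The averaged fall of Lpin1 (-0.36, adjusted p = 0.0110) was lost with quantile normalization (-0.24, adjusted p = 0.0786) and without experiment 2 (-0.32, adjusted p = 0.123). The NS call was lost with quantile normalization (-0.41, adjusted p = 0.0540), without experiment 2 (adjusted p = 0.151) and without either of 2 single arrays (NS at 0 h in experiment 3, adjusted p = 0.0645, and NS at 8 h in experiment 2, adjusted p = 0.0630).

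The fatty acid enzymes themselves were not called in either kind of cells. Acly, which supplies cytosolic acetyl-CoA, gave 0.24 in NS cells and 0.21 in p300kd cells (adjusted p = 0.0897 and 0.130, and 0.00213 and 0.00531 with the block), and averaged over both it was called higher (0.22, adjusted p = 0.0191), a call lost without experiment 3 (adjusted p = 0.168) and without the p300kd array at 8 h of experiment 2 (adjusted p = 0.0521). Acaca, the acetyl-CoA carboxylase of fatty acid synthesis, gave -0.07 in each, and Fasn, fatty acid synthase, 0.04 and 0.06. Acacb, the mitochondrial carboxylase, gave -0.46 in each with a wide interval (-1.05 to 0.12 in NS cells); its change lay between -0.28 and -0.66 in all experiments and passed with the block (adjusted p = 0.00154 and 0.00145). Elovl6, an elongase, gave -0.18 and -0.42, the latter passing with the block (adjusted p = 0.00513). The desaturase Scd gave 0.23 and 0.13 and its relative Scd2 gave -0.10 and -0.17, the latter passing with the block (adjusted p = 0.00522). Fads1 and Fads2, which make polyunsaturated fatty acids, gave -0.16 and 0.07 in NS cells and -0.21 and -0.10 in p300kd cells. The averaged fall of Fads1 (-0.18, adjusted p = 0.0498) was lost in 13 of 23 alternatives (adjusted p 0.0590 to 0.324), among them without any 1 of the 3 experiments.

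Both kinds of cells were compared gene by gene; the responses share no array, but they share the 3 experiments. Of the 33 genes, 32 had the same sign of change in both (97.0%, against 84.1% of all genes), the exception being Fads2. Across the 33 genes Pearson's r was 0.968, and across all genes 0.946, as a description over genes that are not independent. Calls were shared for 10 genes, with 1 in NS cells only (Lpin1) and 2 in p300kd cells only (Fdps and Mvk); over all 14506 genes these counts were 3409, 583 and 1151. The test of the difference itself called 0 of 33 genes and 0 of all 14506 (limma, percentage called 0%), also with the experiment as a block; at an unadjusted p under 0.05 it gave 0 of the 33 and 228 of all genes. The smallest p belonged to Lpin1, Mvk and Fads2 (-0.16). The lowest and highest bounds of the 95% intervals of these differences were -1.10 (Elovl6) and 0.83 (Acacb). Other intervals were narrower, such as -0.39 to 0.23 for Msmo1 and -0.39 to 0.07 for Mvk. For each gene, differences within its own interval remain possible at this number of arrays.

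The response was the more negative in p300kd cells for 25 of 33 genes (75.8%, against 49.3% of all genes), but the experiments were not alike. In experiment 1 this held for 26 genes and in experiment 3 for 28, whereas in experiment 2 it held for 6. The median difference of the 33 genes was -0.09, 0.10 and -0.20 in experiments 1, 2 and 3, against -0.01, 0.01 and 0.02 for all genes. Before the drug, 4, 21 and 11 of the 33 genes were lower in p300kd than in NS cells in experiments 1, 2 and 3; these counts share the 0 h arrays with the former ones and are no separate evidence.

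**Figure D3:**
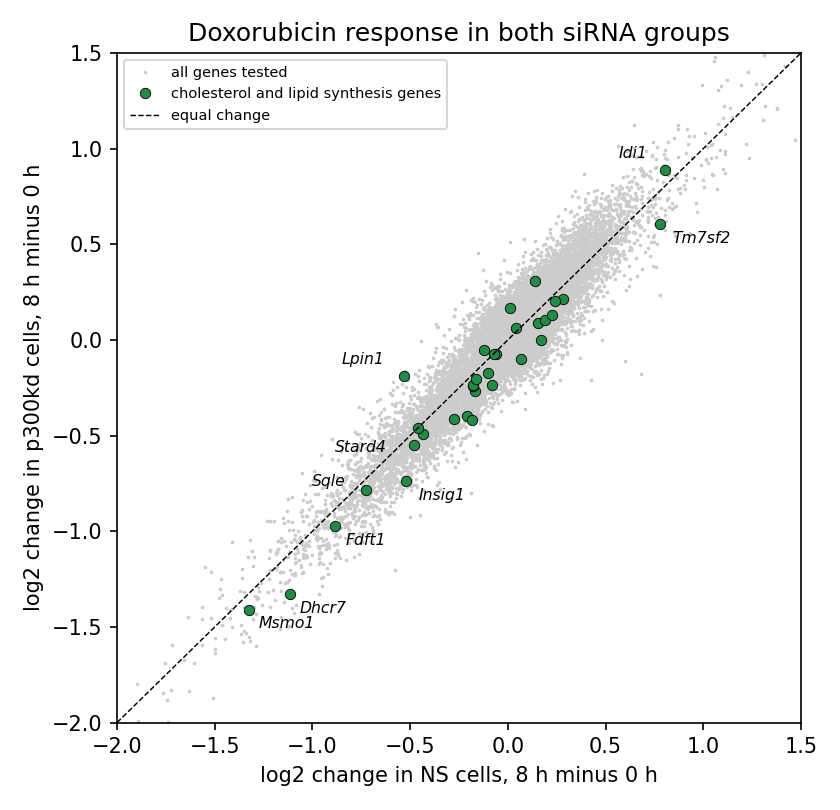
Log2 change with doxorubicin in NS cells (x axis) against that in p300kd cells (y axis), for the 33 genes (green) and all genes tested (grey; 30 genes outside the axes are not drawn), each point from 3 arrays a group. The 33 genes follow the line of equal change (r 0.968), with Lpin1 (-0.53 and -0.19) above it.

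The siRNA comparison gave few calls. At 0 h, 0 of the 33 genes passed, against 0.0207% of all genes in either direction, and 4 had an unadjusted p under 0.05, against 1008 of all genes (limma). At 8 h, 0 passed, against 0.0483% of all genes, and 4 had an unadjusted p under 0.05, against 1155. With the experiment as a block, 2 were lower and 1 higher at 0 h (1.99% and 0.696% of all genes) and 1 lower and 0 higher at 8 h (2.37% and 0.765%). Those lower at 0 h were Fads1 and Lpin1 and the one higher was Acly; the one at 8 h was Fads1. Without the block, the smallest p at 0 h belonged to Fads1, Lpin1 (-0.40, adjusted p = 0.514) and Lss (0.23, adjusted p = 0.596), and at 8 h to Fads1, Fads2 (-0.23, adjusted p = 0.468) and Fasn (0.18, adjusted p = 0.622). Averaged over both times, 1 gene was called lower and 0 higher, against 1.02% and 0.227% of all genes, and 3 and 2 with the block, against 6.29% and 3.23%. The block added Lpin1 (-0.23, adjusted p = 0.0196) and Fdft1 (-0.18, adjusted p = 0.0396) to the genes lower and Acly (0.20, adjusted p = 0.00374) and Fasn (0.17, adjusted p = 0.0451) to those higher.

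Fads1 was the gene called lower with the p300 siRNA. It lies in a cluster with Fads2 on chromosome 1 and encodes a desaturase that makes arachidonic acid. It read 11.19, 11.35 and 11.21 in NS cells at 0 h and 11.00, 10.93 and 10.82 in p300kd cells at 0 h. At 8 h it read 10.98, 11.06 and 11.22 in NS cells and 10.61, 10.92 and 10.60 in p300kd cells. The p300kd arrays were below the NS arrays at each time. The difference was -0.33 at 0 h (adjusted p = 0.373, and 0.0410 with the block) and -0.38 at 8 h (adjusted p = 0.306, and 0.0248 with the block), and averaged -0.36 (SE 0.0707, adjusted p = 0.0330). Within experiments 1, 2 and 3 the averaged difference was -0.29, -0.28 and -0.51. The call was lost in 10 of 23 alternatives, each of which left out arrays (-0.40 to -0.28, adjusted p 0.0545 to 0.537), among them without experiment 2 (-0.40, adjusted p = 0.409) and without experiment 3 (-0.28, adjusted p = 0.537). Fads2 moved the same way by less (-0.15, adjusted p = 0.294).

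Markers of other cells moved with the siRNA as well. All 10 macrophage and leukocyte markers had an averaged difference below 0, with a median of -0.38 and 4 called (Cd74, Csf1r, Mrc1 and Ptprc). Their mean level per array lay between 8.94 and 9.17 in NS cells and 8.51 and 8.83 in p300kd cells at 0 h, and between 8.93 and 9.19 and 8.61 and 8.83 at 8 h. Of 12 fibroblast markers 11 were below 0 (median -0.17, 1 called, Fbln1), as were 8 of 8 adipocyte markers (median -0.10, 1 called, Lpl, a lipase also found in muscle) and 9 of 9 endothelial markers (median -0.11, 0 called). Of 9 smooth muscle and pericyte markers 6 were below 0 (median -0.01, 1 called, Cspg4, -0.37, adjusted p = 0.0330). The 12 myocyte markers had a median of -0.03 and the 6 Schwann and neuronal markers 0.00, with 0 called in either; of all genes 1.02% were called lower. The part of these cells in the Fads1 difference was not tested. With doxorubicin in NS cells, 0 of 12 myocyte markers were called, against 16.4% of all genes lower and 11.1% higher. Called lower were 2 of 9 endothelial markers (Kdr -0.92 and Cdh5 -0.41), 2 of 9 of smooth muscle and pericytes (Cspg4 -1.09 and Pdgfrb -0.85), 1 of 10 of macrophages (Csf1r -0.54) and 1 of 12 of fibroblasts (Pdgfra -0.79). Called higher were 2 of 6 Schwann and neuronal markers (Dbh 0.29 and Tubb3 0.36), 1 fibroblast marker (Thy1 0.49) and 1 of 8 adipocyte markers (Lpl 0.25). The part of these cells in the changes with doxorubicin was not tested.

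**Figure D4:**
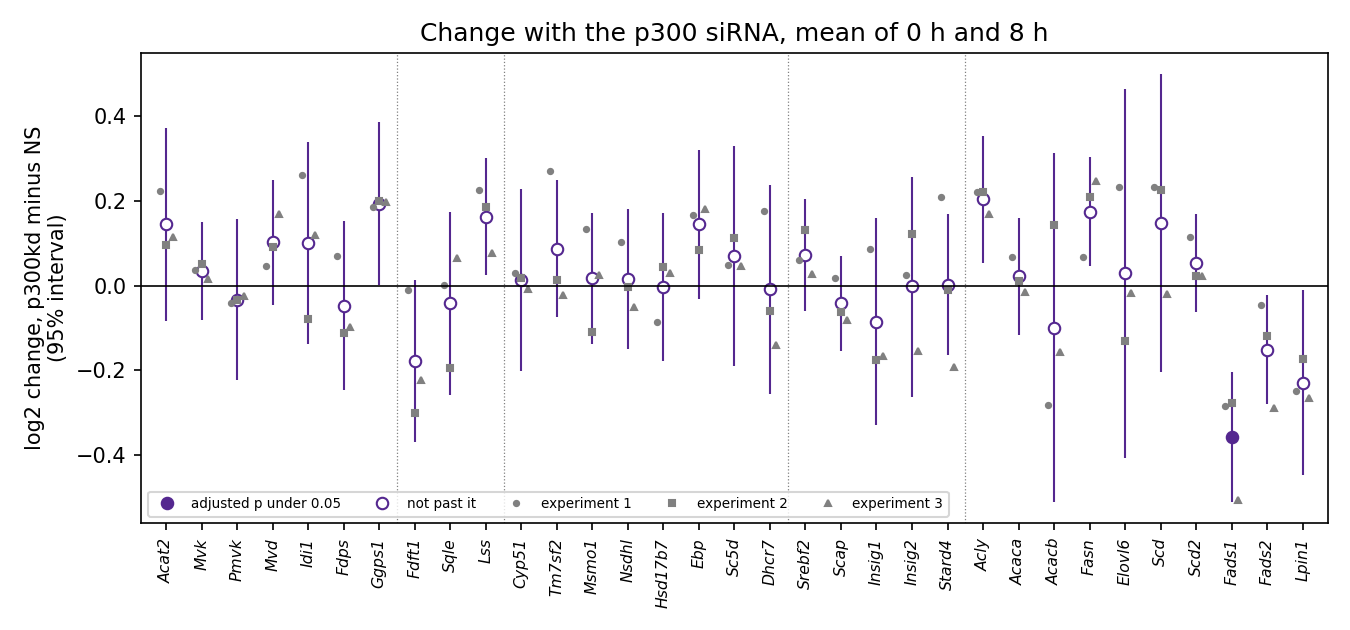
Difference between p300kd and NS cells averaged over 0 h and 8 h (y axis, log2, mean and 95% interval of the fit over 12 arrays) for the 33 genes in pathway order (x axis), with small grey points for each experiment. Fads1 (-0.36) is the gene called, and the intervals of the others lie between -0.51 and 0.50.

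For the other 32 genes the averaged siRNA difference was not called and lay between -0.23 and 0.20. Of the genes that fell with doxorubicin, Msmo1 gave 0.02 (95% interval -0.14 to 0.17), Dhcr7 -0.01 (-0.26 to 0.24), Fdft1 -0.18 (-0.37 to 0.01, called only with the block), Sqle -0.04 (-0.26 to 0.18) and Stard4 0.00 (-0.17 to 0.17). Idi1 gave 0.10 (-0.14 to 0.34), Tm7sf2 0.09 (-0.07 to 0.25), Srebf2 0.07 (-0.06 to 0.21) and Insig1 -0.09 (-0.33 to 0.16). A p that misses the threshold does not show that levels were equal, and the intervals give the size that remains possible.

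Other genes of lipid handling were read from 6 lists, 144 measured genes in all that are not among the 33. With doxorubicin in NS cells 33 of them fell and 17 rose (22.9% and 11.8%, against 16.4% and 11.1% of all genes), with a median of -0.07 against 0.04. These totals were 43 and 38 with the block (29.9% and 26.4%, against 21.9% and 21.6%). Without experiment 2 they were 11 and 5, where 1327 of all 14506 genes were called lower and 455 higher. The counts of the single lists that follow are to be read against the same shares of all genes. Among 14 other genes of the sterol pathway, 3 fell, including Aacs, which makes acetoacetyl-CoA in the cytosol (-0.49), and Fnta, a subunit of the enzymes that attach prenyl groups to proteins (-0.45), and 1 rose (Cyb5r3, 0.22). Among 16 genes of SREBP processing and sterol sensing, 5 fell, with Rnf145 (-0.52) and Rnf139 (-0.52), ubiquitin ligases of the endoplasmic reticulum tied to sterol control, at the lower end, and 2 rose: Pgrmc1 (0.56), a haem protein that binds Insig1, and Paqr3 (0.29), a Golgi anchor for SCAP. Among 26 genes of uptake, transport, storage and efflux, 4 rose and 3 fell. Cyp27a1, which makes an oxysterol from cholesterol, rose (0.48), as did the scavenger receptor gene Scarb1 (0.21), and Osbpl2, an oxysterol-binding protein (-0.64), and Abcg1, a sterol exporter (-0.25), fell.

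On the fatty acid side, 6 of 27 further genes fell and 1 rose with doxorubicin in NS cells. Mid1ip1, which activates acetyl-CoA carboxylase (-0.65), Oxsm of mitochondrial fatty acid synthesis (-0.58), the transcription factor gene Mlx (-0.54) and Acsl3 (-0.53) fell, and Acsl4 rose (0.40); both Acsl genes encode enzymes that activate fatty acids. Of 38 genes of phospholipid and triglyceride synthesis, 8 rose and 5 fell. Dgat2, of the last step of triglyceride synthesis, rose (0.65), whereas Agpat2, of an early step (-0.80), and Fitm2, of lipid droplet formation (-0.80), fell. Of 25 nuclear receptors, coregulators and partners of lipid gene control, 11 fell and 1 rose (Nfyb, a subunit of NF-Y, 0.43), and their median of -0.30 was the lowest of the 6 lists. Ppargc1b (-1.35, adjusted p = 8.63e-06) and Ppargc1a (-1.22, adjusted p = 0.00290), coactivators of mitochondrial and lipid genes, the fatty acid receptor gene Ppara (-1.28, adjusted p = 0.00291) and Nr0b2 (-1.28, adjusted p = 0.000227), a repressor of nuclear receptors, were at its lower end. Of the 35 genes of these lists that the naming rule took in NS cells, 11 kept their call in every alternative that gave them a value (22 for Nr0b2, 23 for the others): the falls of Aacs, Rnf145, Nploc4, Osbpl2, Mid1ip1, Agpat2, Ppargc1b and Nr0b2 and the rises of Pgrmc1, Dgat2 and Ptdss1. Ppara, Ppargc1a, Nfyb and Fitm2 lost it without experiment 2 and Rnf139 and Bscl2 without experiment 3. With the p300 siRNA, Ep300 was the only gene of the 6 lists called at 0 h, at 8 h or averaged, and with the block averaged 10 were lower and 2 higher (6.94% and 1.39%, against 6.29% and 3.23% of all genes).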

How the data were processed

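Per the file headers and labels, the deposited table holds 1 intensity value per probe set and array; per the submitters' processing notes the authors ran RMA (background correction, normalization between arrays and summary of probes) in Affymetrix Expression Console 1.1. The values were linear (8.05 to 25315) and log2 of these deposited values was taken here; the step that made them linear is not given in the sources used here. Over all probe sets the 12 arrays had log2 medians of 7.73 to 7.80. Precision is limited by how many arrays there were.

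Of 29214 probe sets, the platform annotation named 1 gene for 15310, several for 323 and none for 13581; only those with 1 were used. For the 527 genes with several such probe sets the brightest was taken, which left 14506 genes, of which 14480 matched the RefSeq table (GRCr8) by Entrez identifier. A single model of 4 group means was fitted with limma 3.58.1 (R 4.3.3, lmFit, eBayes with trend, two-sided), with Benjamini-Hochberg adjustment across the 14506 genes; a call is an adjusted p under 0.05. A rise is 8 h minus 0 h, or p300kd minus NS, above 0. The fit was run on simulated data with noise drawn independently for each array. Such data do not test it where arrays of an experiment are alike. Figures were drawn with matplotlib 3.10.9.

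Replicate numbers in the labels were taken to pair the arrays. Deviations from group means correlated between arrays with the same number (18 pairs, 0.172 to 0.689, median 0.504) and less between others (36 pairs, -0.590 to 0.354, median -0.271), and each of the 12 arrays was nearest to an array that bears its own number, which is therefore called the experiment. Deviations within a group cancel out, so the values between other numbers follow in part from those between like numbers. The model ignores the experiment, and so do all alternatives other than the blocks. A fit with it as a fixed block is given where it changes a count or a gene's call, and beside some calls that other alternatives lost. The averaged doxorubicin calls it added are given by name and range of adjusted p. The labels do not say whether the cultures of an experiment came from the same animals.

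The 33 genes, the 6 related lists and the marker lists were chosen with earlier results of these data known. Any of the 33 could be named. Values of all 12 arrays are given for Srebf2, Scap, Insig1 and Insig2, for genes called with a change of at least 0.5, and for those called in an siRNA comparison; Mvd is given beyond this. From the related lists up to 4 called genes a direction were named. Alternatives were the block (fixed or random), only the groups compared, dim genes left out, the mean of probe sets, median centring, quantile normalization, eBayes without trend, and leaving out each experiment or array.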

Additional observations from a re-analysis of the deposited data

How the results depend on the processing

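Under the 23 alternatives, 6 of 11 calls with doxorubicin in NS cells held in each (Msmo1, Dhcr7, Fdft1, Sqle, Idi1 and Tm7sf2). In p300kd cells 8 of 12 held in each that gave the gene a value (the same 6, Mvd and Stard4). So did 10 of 18 averaged over both siRNAs and 0 of 1 with the p300 siRNA averaged. Stard4 (highest group mean 8.30) lay below the median of all genes (8.57) and had no value where dim genes were left out. With the experiment as a fixed replicate block these counts of genes called moved by over 1.5 times: with doxorubicin 6 higher in NS cells, 5 higher and 16 lower in p300kd cells; with the p300 siRNA 1 higher and 2 lower at 0 h, 1 lower at 8 h, and 2 higher and 3 lower averaged; and of the related lists 38 higher in NS cells, 35 in place of 19 higher in p300kd cells, and 10 in place of 1 lower with the p300 siRNA averaged. As a random block it gave 5 and 4 higher with doxorubicin in NS and p300kd cells, 1 higher with the p300 siRNA averaged, and 31 of the related lists. Of all 14506 genes it called 2765 and 3107 higher with doxorubicin in NS and p300kd cells, and 225 higher with the p300 siRNA averaged. With each array centred on its median 5 were higher in NS cells, 6 in p300kd cells, 8 averaged and 39 of the related lists, and quantile normalization gave 4 higher in p300kd cells. Of all genes, centring called 3800 higher in NS cells, 4344 in p300kd cells and 6684 averaged, and quantile normalization 2281 in p300kd cells. Leaving out experiments or arrays gave 2 to 4 higher and 4 to 9 lower in NS cells, 2 to 3 and 6 to 12 in p300kd cells, 2 to 5 and 9 to 14 averaged, 0 to 1 lower with the p300 siRNA averaged, and 5 to 18 higher and 11 to 35 lower in the related lists. Over all genes these ranges were 455 to 1814 higher and 1327 to 2452 lower in NS cells. They were 725 to 2323 and 1544 to 2555 in p300kd cells, and 1710 to 3429 and 2477 to 3277 averaged. With the p300 siRNA averaged, 0 to 299 were lower.

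Genes not called in these comparisons changed sign under some alternatives. In NS cells, centring gave Acaca 0.03, Cyp51 0.041, Mvk 0.021 and Scd2 0.001, and quantile normalization gave Acaca 0.035, Fads2 -0.022 and Mvk 0.027. Leaving out arrays or experiments gave Acat2 between -0.22 and 0.045, Cyp51 between -0.166 and 0.047, Fasn between -0.036 and 0.16, Ggps1 between -0.125 and 0.13, Pmvk between -0.02 and 0.263 and Scd between -0.001 and 0.472. In p300kd cells, centring gave Acaca 0.032, Acat2 0.054, Cyp51 0.032 and Fads2 0.007, and quantile normalization gave Acaca 0.036. Leaving out arrays or experiments gave Acaca between -0.125 and 0.004, Acat2 between -0.168 and 0.024, Cyp51 between -0.204 and 0.039, Fads2 between -0.162 and 0.007, Hsd17b7 between -0.114 and 0.067 and Scd between -0.098 and 0.266. Median centring shifts all genes of an array together by construction; the cause of the other changes, those with quantile normalization included, was not tested.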
